A study of Mus musculus with 6 samples.

Results

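The 7 genes described here are the mouse CXC chemokines that attract neutrophils, Cxcl1, Cxcl2, Cxcl3, Cxcl5, Cxcl15 and Ppbp, and their receptor gene Cxcr2. They were taken by symbol from the feature lists of 6 single-cell RNA-seq libraries of mouse lung, and all 7 were found among 29492 listed genes. Every library came from lung of male C57BL/6J mice aged 12 weeks. The control group (2 libraries) received PBS. The LPS group (2 libraries) received lipopolysaccharide, the bacterial cell wall component that triggers acute lung inflammation, at 1 mg/kg. The group called SLC plus LPS (2 libraries) received LPS at 1 mg/kg and 7 rounds of SLC activation, which the sample labels name SLC-Gq and the series title ties to the subcoeruleus nucleus of the brainstem. Lungs were taken on day 3. The labels do not say when the activations fell around the LPS dose, and no group with SLC activation alone was analysed here, so the action of SLC activation outside inflammation cannot be told apart.

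As background, CXC chemokines with a glutamate-leucine-arginine motif are small secreted proteins that bind Cxcr2, a G protein-coupled receptor on neutrophils, and draw these cells out of the blood into tissue. Cxcl1, Cxcl2 and Cxcl3 are induced by Toll-like receptor and interleukin 1 signals through NF-κB, and their short-lived transcripts come from macrophages, neutrophils and stromal cells. Cxcl5 is known as a product of epithelial and stromal cells, Cxcl15 (lungkine) of lung epithelium, and Ppbp encodes the precursor of a platelet chemokine. The tests asked which lung cells held each ligand and its receptor, and whether levels differed after LPS or with SLC activation.

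The 6 ligand genes lie together on chromosome 5, in the order Cxcl5, Ppbp, Pf4, Cxcl3, Cxcl15, Cxcl1 and Cxcl2, where Pf4 encodes platelet factor 4, a CXC chemokine that is not counted here. Cxcr2 lies on chromosome 1. The 120 bases before the annotated start are shown for Cxcl1, Cxcl2 and Cxcl3, the 3 ligands found together in macrophages and monocytes, and for Cxcl15, the neighbour found in epithelium. The sequences are RefSeq's on build GRCm38.p6, 5′ to 3′ on the plus strand, with 2 runs in capitals: GGGAATTTCCC, the longest run of letters that the windows of Cxcl1, Cxcl2 and Cxcl3 share, which has the form of an NF-κB motif, and TATAAA, the TATA box.
Cxcl1 chr5:90891125-90891244: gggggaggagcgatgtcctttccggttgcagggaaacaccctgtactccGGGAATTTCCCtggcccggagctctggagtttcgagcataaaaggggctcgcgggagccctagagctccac
Cxcl2 chr5:90903779-90903898: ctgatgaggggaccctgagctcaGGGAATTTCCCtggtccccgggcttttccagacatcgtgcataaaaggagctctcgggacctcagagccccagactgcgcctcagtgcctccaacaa
Cxcl3 chr5:90785981-90786100: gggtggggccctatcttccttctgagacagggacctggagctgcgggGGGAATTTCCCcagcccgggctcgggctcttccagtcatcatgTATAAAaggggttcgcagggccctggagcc
Cxcl15 chr5:90794414-90794533: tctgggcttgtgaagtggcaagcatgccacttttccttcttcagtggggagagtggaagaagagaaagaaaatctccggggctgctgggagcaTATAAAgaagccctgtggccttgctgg
The shared run of 11 bases begins 71 bases before the start of Cxcl1, 97 before Cxcl2 and 73 before Cxcl3. It was not found on either strand in the same windows of Cxcl15, Ppbp and Cxcr2. Read on both strands, where its other form is GGGAAATTCCC, it occurs in 9 of 32851 such windows (0.0274%), a search made after these sequences had been seen. TATAAA, searched with TTTATA on the other strand, begins 30 bases before Cxcl3 and 27 before Cxcl15, and occurs in 6.34% of all windows. In the window of Ppbp, not printed here, it begins 30 bases before the start, and another copy lies nearer the start. A match describes the letters only.

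The libraries held 31589233 to 48641470 UMIs (unique molecular identifiers, one per captured transcript). Between 11608 and 13710 cells per library passed the filters, with a median of 1134 to 2606 UMIs a cell. Any pair of libraries shared 0 to 6 cell barcodes. Cells were assigned to types by marker genes that include none of the 7. The neutrophil markers summed to at least 26657 CPM in the neutrophil gate and to at most 2343 CPM in other types. CPM is used throughout for the UMIs of a gene per 1000000 UMIs summed over the cells of 1 type in 1 library. LPS replicate 2 stood apart from the other treated libraries: it was the deepest, held 617 neutrophil-profile cells below the marker gate against 3168 to 3838, and held 682 nonclassical monocytes against 31 to 189 in the other 5 libraries. The median mitochondrial share of a cell was 8.82% and 7.99% in the controls and 1.23% to 2.86% in the treated libraries, and its part in the results below was not tested. Neutrophils made up 2044 and 1665 kept cells in the controls, 4362 and 3362 after LPS and 6061 and 4748 after SLC plus LPS.

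The 7 genes fell into 4 patterns of source. Cxcr2 transcripts sat in neutrophils. Cxcl1, Cxcl2 and Cxcl3 were spread over macrophages, monocytes and neutrophils, and Cxcl1 also over fibroblasts. Cxcl15 was held by alveolar type 2 cells and Ppbp by the platelet gate, and Cxcl5 was rare, with 489 UMIs in all kept cells of the 6 libraries. Shares of UMIs by type are shares of the UMIs in kept cells. The plot of UMI sources shows these patterns library by library.

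**Figure D1:**
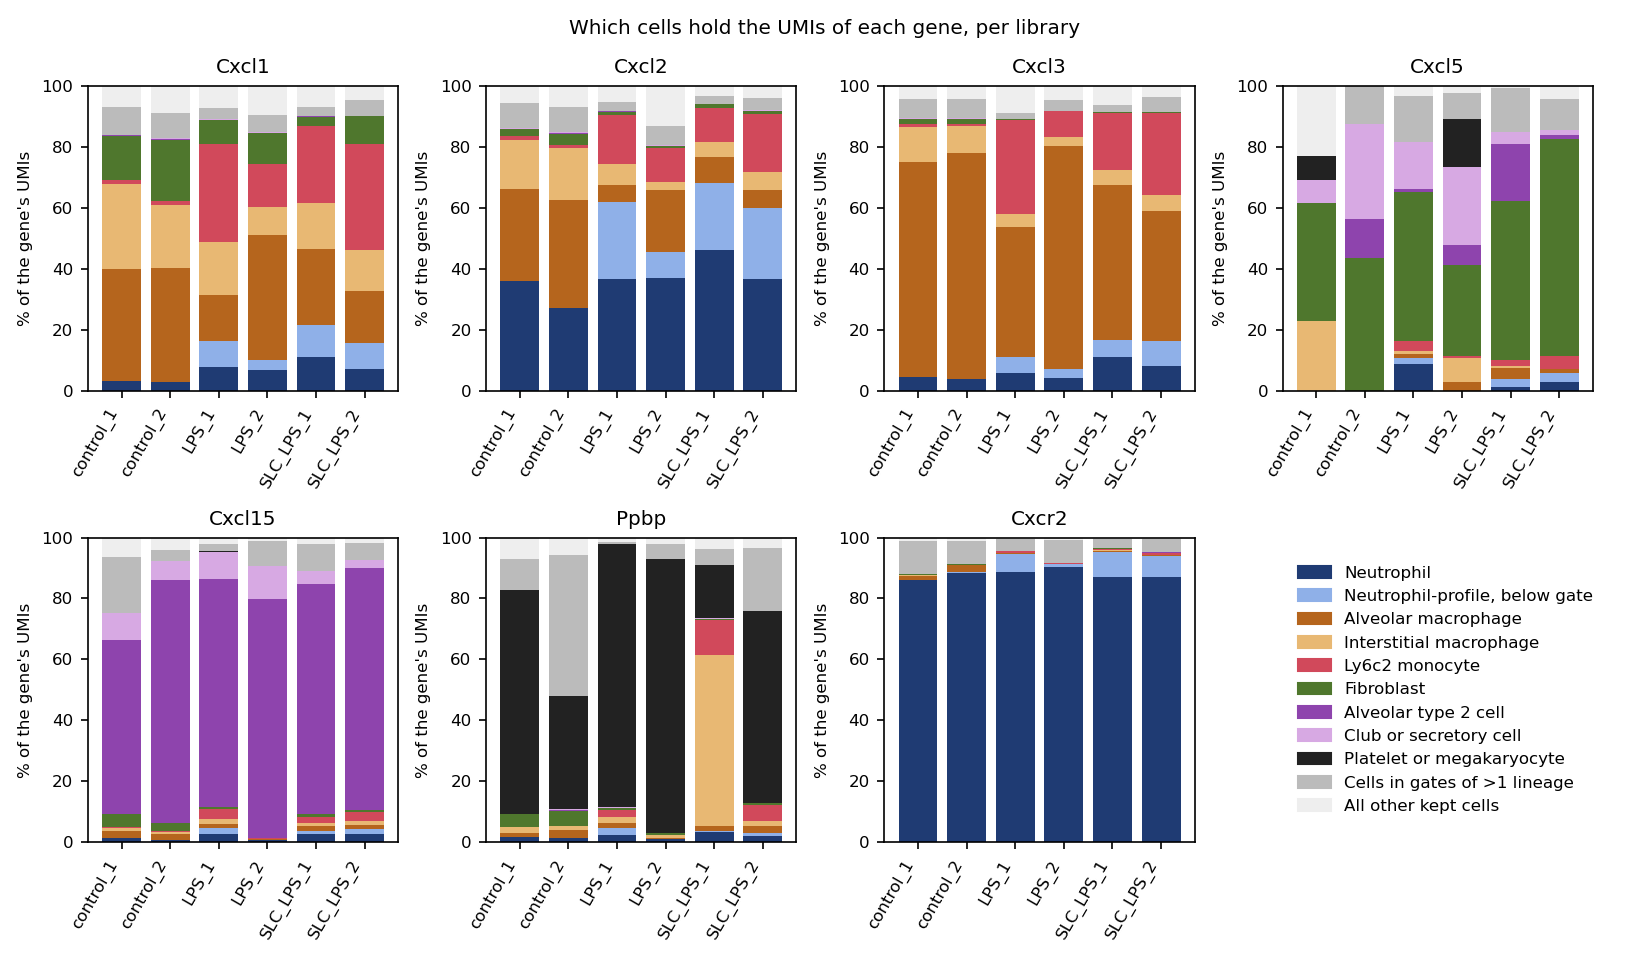
Share of each gene's UMIs (y axis, percent) held by each cell type in each of the 6 libraries (x axis), 1 panel per gene. Cxcr2 lies in neutrophils in every library (86.0% to 90.2%), Cxcl15 mostly in alveolar type 2 cells (56.9% to 79.5%), and Cxcl1, Cxcl2 and Cxcl3 are divided among myeloid types.

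Cxcr2, the receptor, marked neutrophils in all 3 groups. The neutrophil gate held 86.0% and 88.4% of its UMIs in the controls, 88.8% and 90.2% after LPS and 87.1% in both SLC plus LPS libraries. A Cxcr2 UMI was seen in 68.3% and 56.0% of control neutrophils (exact 95% intervals 66.2% to 70.3% and 53.6% to 58.4%), in 55.2% and 82.7% after LPS and in 44.7% and 50.0% after SLC plus LPS. In T cells, taken as cells that should lack the receptor and captured at similar depth (median 1424 to 2313 UMIs against 1032 to 2578 in neutrophils), the share was 0.42% to 1.72%, and free RNA would account for the whole level in 5 of the 6 libraries. Intervals cover counting error only. With every neutrophil thinned to 500 UMIs the shares became 40.9% and 35.7%, 30.6% and 50.5%, and 23.1% and 30.8%, in the same library order.

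Per neutrophil RNA, Cxcr2 reached 1180 and 994 CPM in the controls, 895 and 1841 after LPS and 600 and 885 after SLC plus LPS. LPS replicate 2 was the highest library and both SLC plus LPS libraries lay below both controls and both LPS libraries, narrowly so at 885 against 895 CPM. These values leave out the neutrophil-profile cells below the gate, described below, whose Cxcr2 stood at 87.1 to 164.7 CPM. With them counted as neutrophils, they made up 46.8% and 15.5% after LPS and 34.3% and 41.1% after SLC plus LPS. The order of libraries with those cells added is not given here. In edgeR's quasi-likelihood test over all neutrophil genes, none of the 3 comparisons passed. Over 11722 genes 1.6% passed for LPS against control, 0.947% for SLC plus LPS against control and 0.00853% between the treated groups. The log2 fold change was 0.69 (SE 0.51, adjusted p = 0.531) for LPS against control and -0.63 (SE 0.51, adjusted p = 0.577) for SLC plus LPS against control. Between SLC plus LPS and LPS it was -1.31 (SE 0.52, unadjusted p = 0.0298, adjusted p = 0.898). Without LPS replicate 2 the LPS difference turned to -0.20, and without LPS replicate 1 the difference from SLC plus LPS passed the test (-1.85, adjusted p = 0.0366), with LPS replicate 2 alone standing for LPS.

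The level of Cxcr2 differed among neutrophils of the same lung. Neutrophils were split by fixed gene lists into a range with mature genes (Retnlg and partners), a range with interferon-induced genes, a small range with granule genes and cells in none of these. Such ranges are cuts on marker counts, not cell types, and 427 to 2069 cells per library lay 1 marker short of the mature range. In the mature range Cxcr2 stood at 1265 and 1067 CPM in the controls, 1230 and 2064 after LPS and 862 and 1184 after SLC plus LPS. Among neutrophils in none of the lists it stood at 1116 and 923 CPM, 584 and 751, and 422 and 520. In those cells all 4 treated libraries lay below both controls. In every library, controls included, the level was under that of the mature range. In the interferon range the levels were 1105 and 1197, 537 and 1796, and 487 and 564 CPM, with LPS replicate 2 the highest. Granule-gene neutrophils, found as at least 20 cells in 3 libraries, gave 333 CPM in control replicate 1 and 715 and 1530 after LPS. The mature range made up 57.6% and 44.1% of neutrophils in the controls, 24.3% and 56.6% after LPS and 24.0% and 29.9% after SLC plus LPS, counting the cells below the gate. A range needs markers detected in the cell, so its share can depend on depth. The median gated neutrophil held 1322 and 1032 UMIs in the controls, 1498 and 2578 after LPS and 1346 and 1065 after SLC plus LPS. The part of depth in these shares was not tested. No test was made between ranges, which share their libraries.

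A group of cells nearest to the neutrophil profile but with too few neutrophil markers for the gate was almost confined to treated lungs, with 3 and 5 cells in the controls, 3838 and 617 after LPS and 3168 and 3319 after SLC plus LPS. Their neutrophil markers summed to 3787 to 6131 CPM. Cxcr2 stood at 87.1 and 164.7 CPM there after LPS and at 128.8 and 122.4 after SLC plus LPS, and a UMI was seen in 8.0% to 16.5% of cells. Free RNA would account for 4.53% to 19.0% of that level. The same cells held Cxcl2 at 8615 to 17811 CPM, against 4349 to 16739 in gated neutrophils, with LPS replicate 2 the lowest in both. In the cells below the gate Il1rn, which encodes the interleukin 1 receptor antagonist, stood at 7003 to 9213 CPM. Gated neutrophils held it at 1891 to 5324 CPM and Ly6c2-positive monocytes at 608 to 2146. The macrophage receptor gene Csf1r stood at 316 to 453 CPM, against 245 to 516 in gated neutrophils and 391 to 1303 in Ly6c2-positive monocytes. For Cd24a the values were 1186 to 2384 CPM, against 735 to 1599 and 68.4 to 445. Mpeg1 stood at 969 to 1536 CPM, above most values of both types (417 to 725 and 617 to 1132). S100a8, a marker of the neutrophil gate, stood at 523 to 868 CPM, against 6941 to 19130 and 57.0 to 698. What these cells are was not tested. Low Cxcr2 thus occurred in the same group of treated cells as Cxcl2 at levels like or above those of gated neutrophils. Their median depth was 902 to 1574 UMIs. The group was picked for few neutrophil markers. Over sums of cell types Cxcr2 goes with such markers (Pearson's r 0.83 with S100a9 and 0.75 with Retnlg). Its low level there cannot be told apart from that choice.

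**Figure D2:**
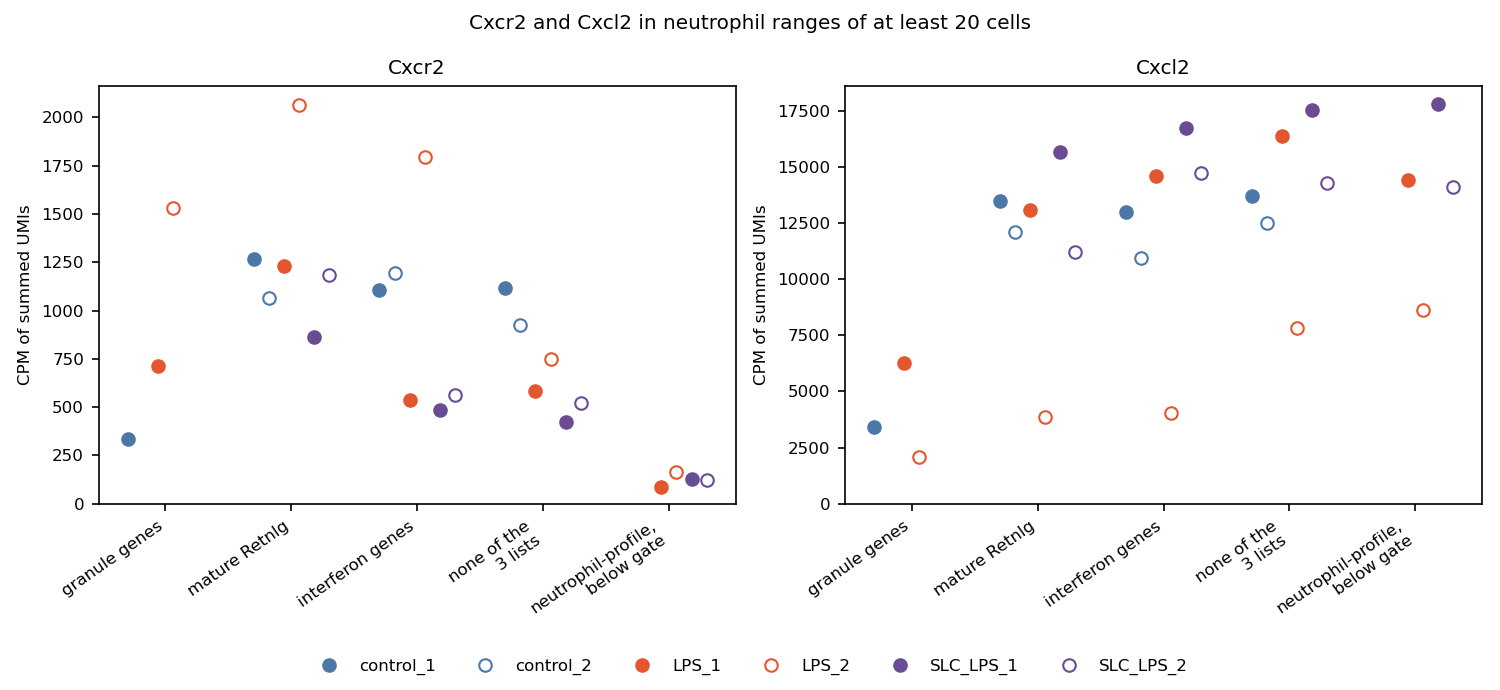
Cxcr2 and Cxcl2 in neutrophil ranges (x axis) of at least 20 cells, as CPM of summed UMIs (y axis, linear from 0), 1 point per library. Cxcr2 is at 862 to 2064 CPM in the mature range and at 87.1 to 164.7 CPM in the neutrophil-profile cells below the gate, while Cxcl2 is lowest in LPS replicate 2.

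Cxcl2, a ligand that neutrophils both make and follow, was detected in 96.2% to 99.5% of neutrophils in every library. Neutrophil levels were 13221 and 12188 CPM in the controls, 14372 and 4349 after LPS and 16739 and 12660 after SLC plus LPS. LPS replicate 2 was the one low library, and the other 5 overlapped between groups. No comparison passed in neutrophils: the log2 fold changes were -0.28 for LPS against control, 0.37 for SLC plus LPS against LPS and 0.09 for SLC plus LPS against control. Without LPS replicate 2 the first became 0.26 and the second -0.14. Neutrophils and the cells below their gate held 36.0% and 27.1% of Cxcl2 UMIs in the controls, where the second class added nothing, and 36.8% plus 25.2%, 37.0% plus 8.4%, 46.3% plus 21.8% and 36.6% plus 23.2% in the treated libraries.

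The other myeloid sources of Cxcl2 lay on opposite sides of their controls after SLC plus LPS, below them in macrophages and above them in monocytes, though no difference passed the test. Dendritic cells and several non-myeloid types also lay above their controls, as given with the flagged results. In alveolar macrophages, the resident phagocytes of the air spaces, Cxcl2 was at 6609 and 6075 CPM in the controls, 3759 and 2916 after LPS and 4228 and 3820 after SLC plus LPS, so that all treated libraries lay below both controls. The log2 fold change was -0.68 for LPS against control (unadjusted p = 0.0191, adjusted p = 0.145), which did not pass over all genes. C1q-positive interstitial macrophages gave 7016 and 6817, 5269 and 2099, and 5211 and 5092 CPM, again with all treated libraries lower, and the LPS difference there passed without LPS replicate 1 (-1.62, adjusted p = 0.0285). In Ly6c2-positive monocytes Cxcl2 was at 3286 and 3338 CPM in the controls, 5386 and 1813 after LPS and 5522 and 5435 after SLC plus LPS. There the SLC plus LPS libraries lay above both controls (log2 fold change 0.97, unadjusted p = 0.0491, adjusted p = 0.298), a difference that passed without either LPS library (adjusted p = 0.0495 and 0.0214), and LPS replicate 2 lay below them. Nonclassical monocytes, which patrol the vessel wall, gave 2841 and 3022, 4608 and 1912, and 6132 and 4022 CPM, in the same order of libraries against controls. Of all genes tested, 2.77% passed for LPS against control in alveolar macrophages, 2.05% in interstitial macrophages and 0.988% in Ly6c2-positive monocytes. The shares for SLC plus LPS against control were 2.66%, 2.38% and 1.74%, and between the treated groups 0%, 0% and 0.0083%. The median alveolar macrophage held 4194 to 5013 UMIs in the controls and 11406 to 13856 in the treated libraries. The alveolar macrophage markers of this gate summed to 10211 and 10795 CPM in the controls, 3730 and 11870 after LPS and 4201 and 4390 after SLC plus LPS. Neutrophil markers in the same gate stood at 397 and 414, 1521 and 486, and 838 and 2077 CPM. The gate thus held less of its own marker RNA in 3 of the 4 treated libraries, LPS replicate 2 excepted. Interstitial macrophage markers stood at 6048 and 6140 CPM in the controls and at 4215 to 4446 in the treated libraries. The median depth of that gate was 4011.5 and 3093.5 UMIs in the controls and 6226 to 8411 in the treated libraries. The part of depth and of these marker levels in the Cxcl1, Cxcl2 and Cxcl3 values of both macrophage types was not tested.

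Cxcl2 and its receptor met in the same neutrophils. Among neutrophils of 1000 to 2000 UMIs, those with a Cxcr2 UMI held less Cxcl2 than those without in all 6 libraries. The pairs were 12859 against 16141 and 12283 against 12349 CPM in the controls, 13627 against 16867 and 5783 against 8889 after LPS, and 15193 against 18187 and 11112 against 13740 after SLC plus LPS. The gap was nearly nil in control replicate 2. The cells of a library are not replicates, so the difference is a description. Cells with a Cxcr2 UMI were also the deeper ones in each pair, from 1384 against 1332 UMIs at the median in SLC plus LPS replicate 1 to 1680 against 1509 in LPS replicate 2, where the Cxcl2 levels lay furthest apart in ratio.

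Cxcl1, a ligand made by macrophages and stroma, had its highest level in interstitial macrophages in 5 of the 6 libraries, among types of at least 20 cells, and in fibroblasts in SLC plus LPS replicate 2. In alveolar macrophages it stood at 2207 and 3408 CPM in the controls, 3521 and 7912 after LPS and 1577 and 2870 after SLC plus LPS. Interstitial macrophages gave 3303 and 4512, 4548 and 9332, and 2272 and 3038 CPM. In both types the 2 LPS libraries were the highest and the SLC plus LPS libraries lay below them, reaching into or under the control range. For LPS against control the log2 fold change in alveolar macrophages was 1.28 (SE 0.49, adjusted p = 0.186), with 0.55 to 1.80 when 1 library was left out, and it passed without LPS replicate 1 (1.80, adjusted p = 0.0440). The difference between SLC plus LPS and LPS was -1.42 in alveolar macrophages (unadjusted p = 0.0217, adjusted p = 0.975) and -1.42 in interstitial macrophages (unadjusted p = 0.00701, adjusted p = 0.983). Neither difference passed the adjusted test, and the first ran from -1.95 to -0.66 with 1 library left out. Without LPS replicate 1 the interstitial macrophage difference passed at -1.86 (adjusted p = 0.0408).

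Monocytes, fibroblasts and mural cells were further sources of Cxcl1. Ly6c2-positive monocytes, which are recruited from blood, held 732 and 1865 CPM of Cxcl1 in the controls, 3713 and 3125 after LPS and 1621 and 2646 after SLC plus LPS (LPS against control 1.70 on the log2 scale, unadjusted p = 0.00391, adjusted p = 0.121), a difference that passed without either SLC plus LPS library (adjusted p = 0.0172 and 0.00841). They supplied 1.2% and 1.1% of all Cxcl1 UMIs in the controls and 14.1% to 34.8% in the treated libraries, in which they numbered 871 to 1519 cells against 142 and 99. Fibroblasts held 623 and 1243 CPM in the controls, 3558 and 5327 after LPS and 469 and 3381 after SLC plus LPS. The 2 SLC plus LPS fibroblast sums lay on either side of the control range, and the LPS difference of 2.33 did not pass (adjusted p = 0.592). Mural cells, the contractile cells around vessels, held 685 and 865 CPM in the controls, 1400 and 9140 after LPS and 424 and 1256 after SLC plus LPS. LPS replicate 2 was far above the rest there, close to its interstitial macrophages. The mural LPS difference from control was 2.69 (adjusted p = 0.644). It passed without LPS replicate 1 (3.47, adjusted p = 0.00688), as did that between SLC plus LPS and LPS (-3.45, adjusted p = 0.0136). In neutrophils Cxcl1 was 338 and 740, 1048 and 1069, and 527 and 665 CPM, and free RNA would account for 8.18% to 31.4% of that level.

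Cxcl3, the third of the inducible ligands, was above all an alveolar macrophage transcript. These cells held 70.4% and 74.2% of its UMIs in the controls, 42.6% and 73.2% after LPS and 50.8% and 42.5% after SLC plus LPS. Their level was 563 and 392 CPM in the controls, 2491 and 7189 after LPS and 3509 and 751 after SLC plus LPS. All treated libraries exceeded both controls, but SLC plus LPS replicate 2 did so narrowly. The share of alveolar macrophages with a Cxcl3 UMI was 40.4% and 34.6%, 90.2% and 95.9%, and 93.8% and 84.2%, against 0.99% to 12.8% in T cells. Thinned to 500 UMIs it was 13.7% and 11.5%, 54.2% and 83.1%, and 64.5% and 26.7%. The log2 fold change for LPS against control was 3.60 (SE 0.80, adjusted p = 0.0652), just short of the threshold, which it passed without SLC plus LPS replicate 1 or 2 (0.0485 and 0.0474). That for SLC plus LPS against control was 2.34 (adjusted p = 0.133). The shift in this gate's own and neutrophil marker levels, given with Cxcl2, touches these values too.

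The same order held for Cxcl3 in Ly6c2-positive monocytes, at 84.2 and 87.3 CPM in the controls, 892 and 941 after LPS and 1302 and 219 after SLC plus LPS. The log2 fold changes against control were 3.74 (adjusted p = 0.0668) and 3.40 (adjusted p = 0.0670). The first passed without either SLC plus LPS library (5.50e-07 and 6.33e-09) and the second without SLC plus LPS replicate 2 (4.20, adjusted p = 5.32e-09). In neutrophils Cxcl3 was at 62.5 and 54.9, 200 and 354, and 584 and 78.5 CPM, and the LPS difference passed without SLC plus LPS replicate 2 (2.59, adjusted p = 0.0467). SLC plus LPS replicate 2 was the lowest treated library for Cxcl3 in all these types. With all 6 libraries, Cxcl3 passed the adjusted test within types only in endothelial cells, for LPS against control (2.91, SE 0.37, adjusted p = 0.0308, where 0.168% of 7752 genes passed, against 0.0387% for SLC plus LPS against control). That call rested on 18 and 8 UMIs in the controls and 16 and 124 after LPS. Free RNA would account for 54.4% to 100% of the level in these 4 libraries, and the call was lost with free RNA subtracted (adjusted p = 0.708) and without either control library (0.258 and 0.302).

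**Figure D3:**
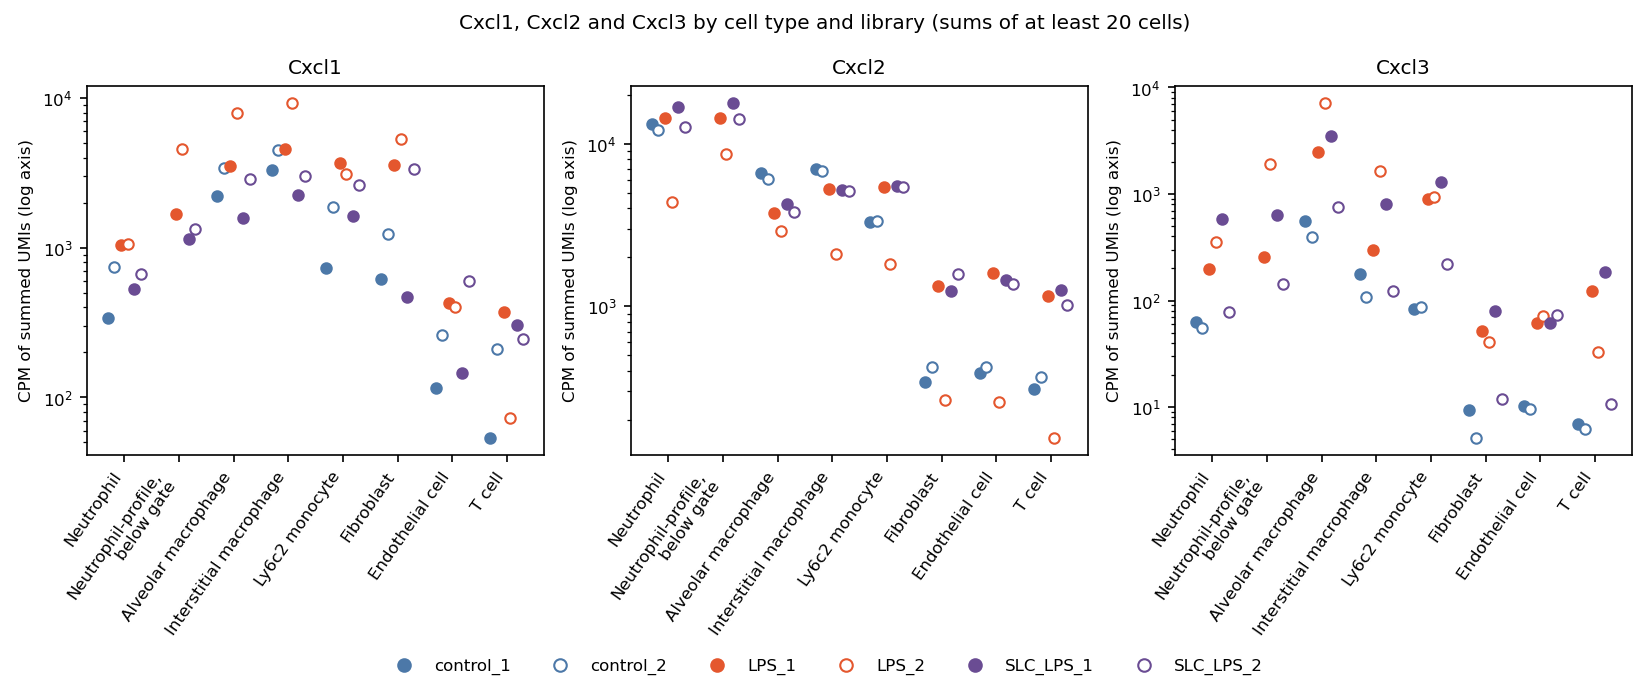
Cxcl1, Cxcl2 and Cxcl3 as CPM of summed UMIs (log axis) by cell type (x axis), 1 point per library. LPS replicates are highest for Cxcl1 in both macrophage types, LPS replicate 2 is lowest for Cxcl2 in neutrophils at 4349 CPM, and Cxcl3 in alveolar macrophages runs from 392 and 563 CPM in controls to 751 to 7189 CPM in treated libraries.

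Cxcl5, a ligand of stromal and epithelial origin, was rare but had its main source in fibroblasts. Fibroblasts held 38.5% and 43.8% of its UMIs in the controls, 48.9% and 30.0% after LPS and 52.2% and 71.0% after SLC plus LPS. Their counts were 5 and 7 UMIs from 1929 and 2548 cells in the controls, 45 and 42 UMIs from 361 and 696 cells after LPS, and 83 and 49 UMIs from 517 and 294 cells after SLC plus LPS. Scaled to depth this was 0.7 and 1.0, 21.9 and 15.4, and 31.1 and 36.7 CPM, and every treated library lay far above both controls. The rise for SLC plus LPS against control passed the test (log2 fold change 5.34, SE 0.45, adjusted p = 0.0340, where 0.0258% of 11614 genes passed). The difference for LPS against control was 4.48 (SE 0.45, adjusted p = 0.123) and passed without LPS replicate 1 (4.14, adjusted p = 0.0274) or 2 (4.77, adjusted p = 0.00610), and that between the treated groups was 0.86 (adjusted p = 0.888).

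The fibroblast Cxcl5 call was sensitive to single libraries. Without either control library the adjusted p was 0.160 and 0.400, without SLC plus LPS replicate 1 or 2 it was 0.104 and 0.371, and with free RNA subtracted 0.139. Few cells carried the transcript: 4 and 5 fibroblasts in the controls and 11 to 27 in the treated libraries, with up to 27 UMIs in a single cell. Epithelium added small counts, although as CPM club or secretory cells stood above fibroblasts in the 5 libraries with at least 20 such cells, at 3.6 to 134.7 CPM. Club or secretory cells held 14 and 36 Cxcl5 UMIs after LPS, of which 22 in replicate 2 came from 1 cell. Alveolar type 2 cells held 30 in SLC plus LPS replicate 1, spread over 12 cells. T cells held 0 Cxcl5 UMIs in every library, which allows a share of cells with a UMI of up to 0.406% to 1.32%.

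Cxcl15, the lung epithelial ligand, was an alveolar type 2 transcript in every group. These cells, which make surfactant, were few among the kept cells: 48 and 110 in the controls, 40 and 74 after LPS and 58 and 24 after SLC plus LPS. They held 56.9% to 79.5% of the Cxcl15 UMIs in kept cells, and 93.8% to 100% of them had a Cxcl15 UMI. The kept cells themselves held 34.5% and 60.03% of all Cxcl15 UMIs in the controls, 70.7% in both LPS libraries and 72.6% and 84.5% after SLC plus LPS. Barcodes of at least 500 UMIs that failed another filter, on genes or mitochondrial share, held 54.3% and 29.5%, 14.9% and 19.3%, and 16.1% and 7.4%. The filters thus removed a larger share of Cxcl15 in both controls than in any treated library, and the part of this loss in the values below was not tested. The level was 12263 and 13871 CPM in the controls, 17621 and 16636 after LPS and 23990 and 18727 after SLC plus LPS. The groups did not overlap and lay in that order, but no difference passed. The log2 fold change was 0.48 for LPS against control (adjusted p = 0.747), 0.34 for SLC plus LPS against LPS, and 0.83 for SLC plus LPS against control (unadjusted p = 0.0445, adjusted p = 0.375). Of the genes tested in these cells 0.229%, 0% and 0.429% passed in the 3 comparisons, in that order. Club or secretory cells were the other source, at 775 to 2382 CPM, and T cells held Cxcl15 at the level that free RNA gives in 4 of the 6 libraries.

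Ppbp, the platelet chemokine precursor, was concentrated in a handful of cells. The platelet or megakaryocyte gate held 15 and 16 cells in the controls, 7 and 12 after LPS and 4 and 3 after SLC plus LPS. Their Ppbp stood at 55728 and 49208, 29680 and 59476, and 22690 and 45535 CPM, with overlapping groups and too few cells for a test. They held 73.6% and 37.1% of Ppbp UMIs in the controls, 86.2% and 90.0% after LPS and 17.6% and 63.1% after SLC plus LPS. The low share of control replicate 2 goes in part with 539 UMIs in 1 cell that passed gates of more than 1 lineage. In that library 39 kept barcodes had at least 2 platelet markers, against 16 cells in the gate. They held 1618 of its 1966 Ppbp UMIs in kept cells. The low share of SLC plus LPS replicate 1 goes with interstitial macrophages, which held 264 Ppbp UMIs.

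**Figure D4:**
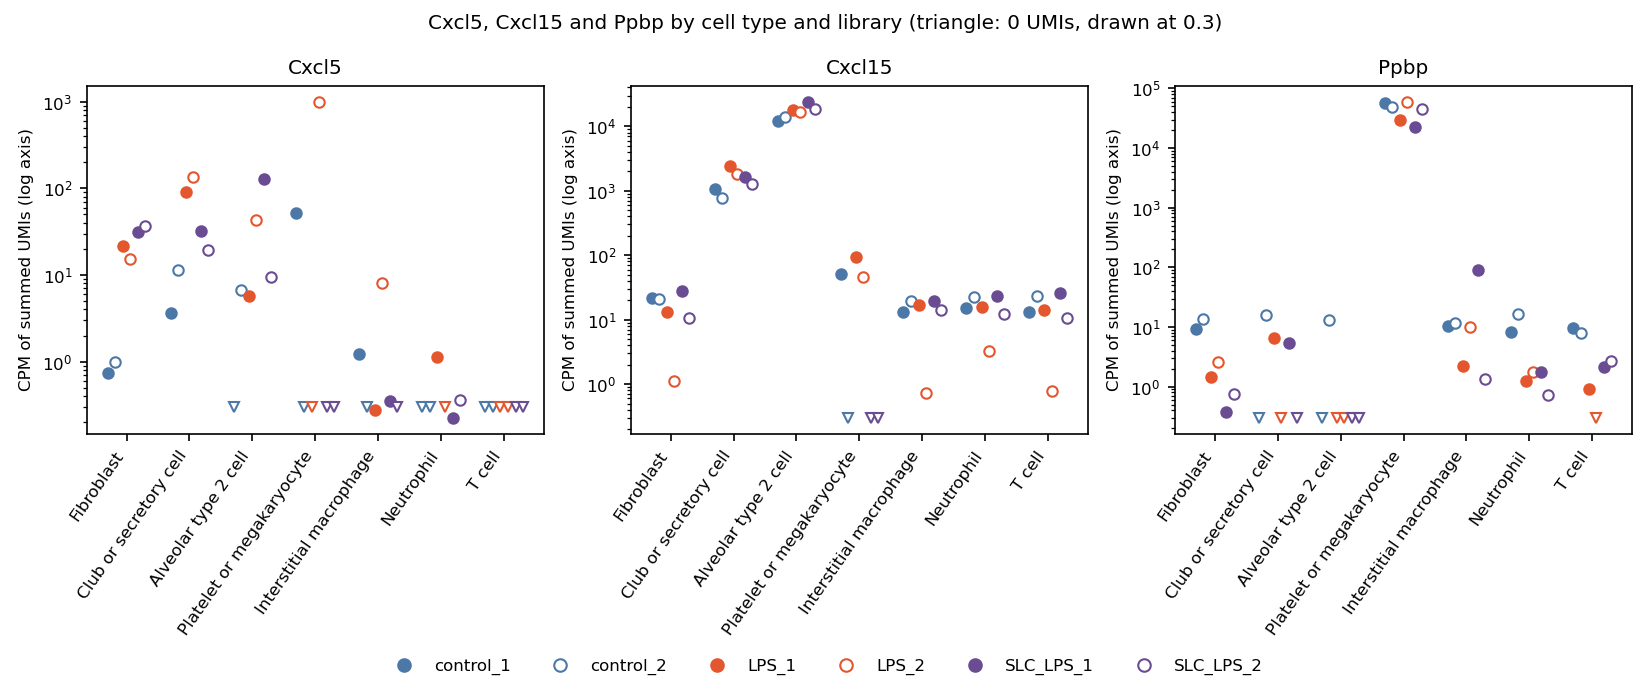
Cxcl5, Cxcl15 and Ppbp as CPM of summed UMIs (log axis) by cell type (x axis), 1 point per library. Cxcl15 in alveolar type 2 cells runs from 12263 to 23990 CPM, Ppbp in the platelet gate from 22690 to 59476 CPM, and Cxcl5 in fibroblasts from 0.7 and 1.0 CPM in controls to 15.4 to 36.7 CPM in treated libraries.

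Summed over all kept cells, a change can come from more cells of a type or from more RNA per cell, which such sums cannot tell apart. For LPS against control 3 of the 7 genes passed the test and all 3 were higher, where 7.84% of 17900 genes passed. Cxcr2 was at 123 and 72.2 CPM in the controls and 191 and 423 after LPS (log2 fold change 2.02, SE 0.44, adjusted p = 0.0445). Cxcl3 was at 119 and 89.2 against 645 and 1685 CPM (3.85, SE 0.88, adjusted p = 0.0485), and Cxcl5 at 0.4 and 0.6 against 2.4 and 3.2 CPM (2.92, SE 0.44, adjusted p = 0.0242). LPS libraries lay above both controls for each of these. Cxcl15 (-0.08) and Ppbp (-1.04, adjusted p = 0.282) did not pass, though Ppbp did without LPS replicate 2 (-2.14, adjusted p = 0.0310). Cxcl1, at 897 and 1551 against 2543 and 3290 CPM, fell short (1.62, SE 0.40, adjusted p = 0.0583), as did Cxcl2 at 3286 and 2888 against 7391 and 2436 CPM (1.06, adjusted p = 0.220). Without LPS replicate 2 Cxcl2 passed (1.67, adjusted p = 0.0183), and with 1 library left out it ran from 0.0071 to 1.67.

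The 3 calls in all kept cells were lost without either control library, where adjusted p ran from 0.173 to 0.265. Those of Cxcl3 and Cxcr2 were also lost without LPS replicate 2 (0.0769 and 0.0549). The Cxcr2 call was lost without SLC plus LPS replicate 1 or 2 as well (0.0759 and 0.0775), and without LPS replicate 1 it passed (2.47, adjusted p = 0.0247). The median over the 7 genes was 1.62 on the log2 scale, against -0.02 over all genes. Without trimmed-mean scaling the median of all genes moved to -0.39. Of the calls over all genes 709 were higher and 695 lower with that scaling, and 518 and 1774 without it.

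For SLC plus LPS against control 1 of the 7 passed in all kept cells, where 12.4% of genes passed. This was Cxcl5, at 4.3 and 2.6 CPM after SLC plus LPS (log2 fold change 3.18, SE 0.45, adjusted p = 0.0205), a call lost without either control library (0.156 and 0.154) and without either SLC plus LPS library (0.0671 and 0.102). Cxcl2 at 8672 and 7068 CPM (1.72, adjusted p = 0.0707), Cxcl3 at 1250 and 197 CPM (3.12, adjusted p = 0.0585) and Cxcr2 at 165 and 208 CPM (1.32, adjusted p = 0.0884) lay above both controls without passing. Ppbp lay below them, at 12.7 and 7.5 against 44.7 and 70.0 CPM (-2.15, adjusted p = 0.0593). With either LPS library left out the log2 fold changes stayed at 1.73 for Cxcl2, 3.13 for Cxcl3, 1.33 for Cxcr2 and -2.14 for Ppbp. The LPS libraries are in neither of these groups but share the estimate of the spread. Without trimmed-mean scaling the calls over all genes went from 931 higher and 1284 lower to 598 and 2533.

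For SLC plus LPS against LPS none of the 7 passed in all kept cells, with 0 at an unadjusted p under 0.05 by edgeR and 0 calls by DESeq2. Here 0% of the 17900 genes passed, and 488 had an unadjusted edgeR p under 0.05. The nearest was Cxcl1, at 1151 and 1864 CPM against 2543 and 3290 (log2 fold change -0.93, SE 0.39, unadjusted p = 0.0517, adjusted p = 0.922), with both SLC plus LPS libraries below both LPS libraries. The others were 0.66 for Cxcl2, -0.73 for Cxcl3, 0.26 for Cxcl5, 0.45 for Cxcl15, -1.11 for Ppbp and -0.70 for Cxcr2. The 3 comparisons share libraries pair by pair, so their values are not independent.

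**Figure D5:**
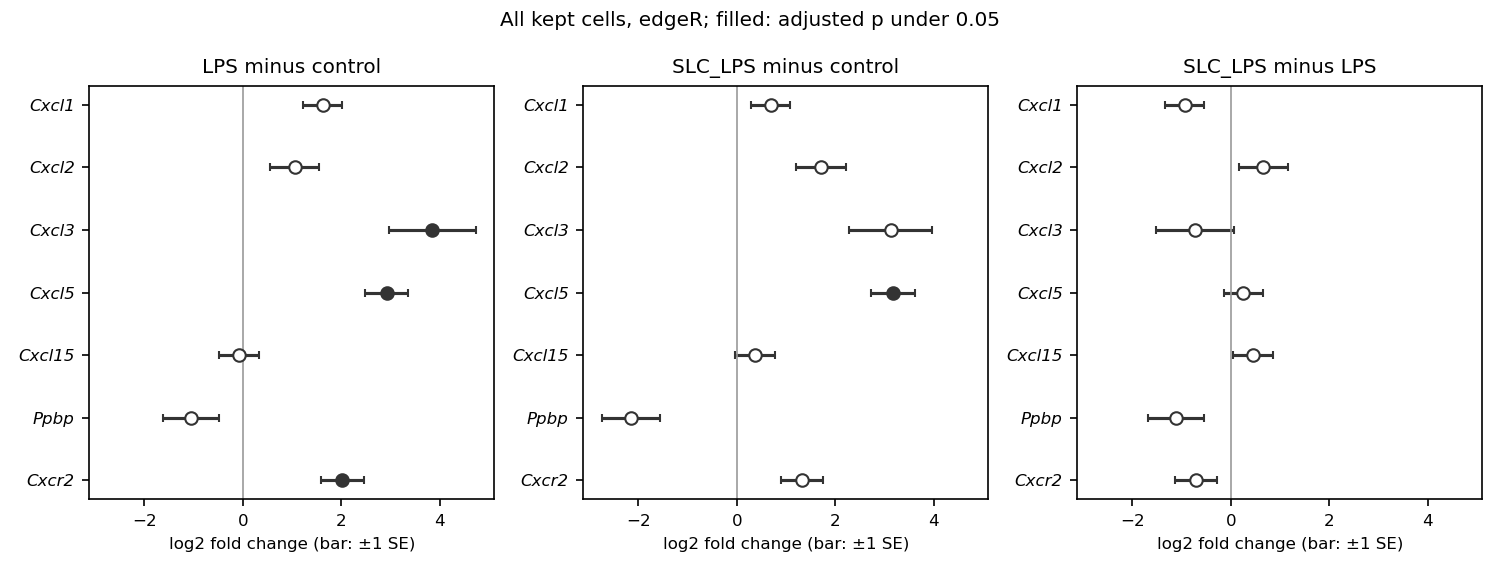
log2 fold changes of the 7 genes in all kept cells (x axis, bars ±1 SE) for the 3 comparisons, with filled points where the adjusted p was under 0.05. Filled points are Cxcl3, Cxcl5 and Cxcr2 for LPS against control and Cxcl5 for SLC plus LPS against control, and none for SLC plus LPS against LPS.

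Within the 13 cell types with at least 20 cells in every library, 60 tests of the 7 genes were made per comparison. For LPS against control 1 passed (Cxcl3 in endothelial cells), where 0.956% of all gene tests in these types passed. An unadjusted edgeR p under 0.05 was reached by 28, and by 14021 of all 108360 gene tests in these types. After SLC plus LPS 2 passed against control (background 1.01%), namely Cxcl5 in fibroblasts and, downward, Ppbp in neutrophils. The second rested on 24 and 30 UMIs in the controls against 16 and 4, at a log2 fold change of -3.34 (SE 0.64, adjusted p = 0.0493). Free RNA would account for 61% to 100% of the Ppbp level. Between SLC plus LPS and LPS 0 passed by edgeR and 0 by DESeq2 (background 0.00277%). An unadjusted edgeR p under 0.05 was reached by 10, and by 4580 of all 108360 gene tests in these types. Without LPS replicate 1, 19 of 66 tests passed, where 5.27% of all gene tests in these types passed, 15 of the 19 higher and 4 lower, and Cxcl2 was higher in 9 of the 13 types. Some of these were types such as T and B cells where free RNA gave much of the Cxcl2 level.

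The lists fixed around the 7 genes were read by counts. Over all 17900 genes in all kept cells, 7.84% passed in either direction for LPS against control and 12.4% for SLC plus LPS against control. Of 19 genes of Cxcr2 signalling, 6 were higher for LPS against control in all kept cells and none lower, with a median of 0.58 against -0.02 over all genes. They included the integrin subunit genes Itgam (2.35, adjusted p = 0.0168) and Itgb2 (1.59) and the kinase gene Fgr (1.74). The count was again 6 of 19 for SLC plus LPS against control. Of 22 inducers and mRNA regulators 5 were higher after LPS, led by the LPS co-receptor gene Cd14 (2.38, adjusted p = 0.0165), Il1b (2.20), Il1a (2.42) and Tlr4 (1.34), which encodes the LPS receptor, and 6 after SLC plus LPS. Of 11 other neutrophil traffic receptors 5 were higher in each comparison with control, led after LPS by the formyl peptide receptor genes Fpr2 (2.71) and Fpr1 (1.91), by Ptafr (1.93) and by Ccr1 (1.52). Most of these genes are expressed by neutrophils and monocytes, which were more numerous in the treated libraries, and the part of cell number in these counts was not tested. Without either control library none of the list genes passed for LPS against control.

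Within neutrophils the picture narrowed. Over all 11722 neutrophil genes, 1.6% passed in either direction for LPS against control. The share was 0.947% for SLC plus LPS against control and 0.00853% between the treated groups. None of 18 tested Cxcr2 signalling genes and none of 11 traffic receptors passed for either treated group against control by edgeR or DESeq2, with 3 and 2 at an unadjusted edgeR p under 0.05 after LPS and 2 and 1 after SLC plus LPS. Of 9 other CXC chemokines 3 were higher in neutrophils after LPS: Cxcl9 (7.40, adjusted p = 0.0155), Cxcl11 (5.12, adjusted p = 0.0283) and Cxcl10 (3.24, adjusted p = 0.0394), the interferon-induced ligands of Cxcr3. After SLC plus LPS 2 of the 9 were higher, Cxcl9 (7.61) and Cxcl11 (4.89). Of 20 tested inducers, Il1a (2.53, adjusted p = 0.0329) and Tlr4 (1.73, adjusted p = 0.0394) were higher in neutrophils after LPS, and Il1a (2.60) after SLC plus LPS. These neutrophil calls were lost without either control library, and those after SLC plus LPS also without SLC plus LPS replicate 2. Without LPS replicate 1 the number of list genes passing went from 5 to 15 after LPS, and without either LPS library from 3 to 7 after SLC plus LPS. For SLC plus LPS against LPS none of 58 list genes passed in neutrophils (3 at an unadjusted edgeR p under 0.05, 0 by DESeq2), nor any of 61 in all kept cells (3 unadjusted, 1 by DESeq2), and 6 passed in neutrophils without LPS replicate 1.

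The genes most alike each member were sought over 95 sums of 20 cell types and 6 libraries, each of at least 20 cells, which leaves out the platelet gate. By Pearson's r of log2(CPM + 1), Cxcl2 was nearest to Nlrp3 (0.93), Clec4d (0.87) and Ccl3 (0.87), and Cxcr2 to S100a9 (0.83), Retnlg (0.75) and S100a8 (0.73). Cxcl15 was nearest to the surfactant genes Sftpa1 (0.94), Sftpd (0.92) and Sftpb (0.91). Cxcl1 came nearest to Cxcl10 (0.73), Cxcl3 to Cstb (0.73), Cxcl5 to Vnn1 (0.75) and Ppbp to Mmrn1 (0.53). Among the members, the pairs Cxcl1 and Cxcl3 (0.56), Cxcl2 and Cxcl3 (0.52) and Cxcl1 and Cxcl2 (0.49) were less alike than Cxcl5 and Cxcl15 (0.59). Sums of 1 library share its depth and its free RNA, so these values are descriptions.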

How the data were processed

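Single-cell RNA-seq of lung was made on the BD Rhapsody platform, per the labels' protocols. The values are raw UMI counts per gene and cell barcode, deposited by the authors, and per the submitters' processing notes the build is GRCm39 (mm39); the aligner and counter are not given in the sources used here. Libraries were grouped by their labels, 2 biological replicates a group per the series' design text. The 7 genes and all lists were chosen with earlier results of these data known.

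Barcodes with at least 500 UMIs, 300 genes and under 20% mitochondrial UMIs were kept. Cells were gated with 24 marker lists: at least 2 distinct markers, and marker counts above the free RNA expectation (a Poisson p under 0.001, at an assumed free RNA fraction of 0.3 and the profile of barcodes under 100 UMIs). Cells in gates of more than 1 lineage were left out of types, which was the only treatment of doublets. Cells in no gate were compared with the class profiles of their library, and those nearest neutrophils (log-likelihood margin 10) are the neutrophil-profile cells below the gate. Free RNA shares of a level come from the same profile.

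UMIs were summed per library and type and tested with edgeR 4.0.16 (quasi-likelihood, robust, TMM factors, low-count filter) in R 4.3.3, with all 6 libraries in 1 fit and Benjamini-Hochberg adjustment over all genes of a type at 0.05, for 13 types with at least 20 cells in every library and for all kept cells. SEs are the log2 fold change over the root of F. The same steps were tested on simulated data. An exact permutation test of 2 libraries against 2 cannot go below 0.333, and none is reported. Intervals of shares are exact (Clopper-Pearson, 95%), and the limit for 0 is 3 counts. Named list genes are at most the 4 with the smallest p that passed, and the most alike genes the 3 highest correlations. Alternatives were DESeq2 1.42.0, no TMM factors, no low-count filter, a replicate block, each library left out, a stricter cell filter (1000 UMIs, 10% mitochondrial), a stricter gate, free RNA subtracted, mixed cells in their strongest gate and thinning to 500 UMIs. Adding ungated cells to the nearest type, and all alternatives for UMI sources, were chosen after seeing the data.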

Additional observations from a re-analysis of the deposited data

Results flagged for a closer look

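After SLC plus LPS, Cxcl2 lay on opposite sides of the controls in monocytes and macrophages: in each monocyte type both treated libraries were above both controls, and in each macrophage type both were below. The log2 ratio of group means was 0.73 in Ly6c2-positive monocytes, 0.79 in nonclassical monocytes, -0.66 in alveolar macrophages and -0.43 in interstitial macrophages. The gap between Ly6c2-positive monocytes and alveolar macrophages was 1.382, and that to interstitial macrophages 1.151. For nonclassical monocytes the gaps were 1.449 and 1.217. The difference between the types was not tested, and groups of 2 libraries could not be checked for single libraries that stand apart. Nonclassical monocytes numbered only 35 and 31 cells in the SLC plus LPS libraries. The rise was not particular to monocytes. Alveolar type 2, B, dendritic, endothelial, fibroblast, mural and NK cells also lay above both controls, while neutrophils overlapped. None of these differences passed the test. In B cells, for example, free RNA gave much of the Cxcl2 level. The alveolar macrophage gate held 4201 and 4390 CPM of its own markers, against 10211 and 10795 in the controls. The part of this in Cxcl2 was not tested.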

How the results depend on the processing

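Of 803 alternative values, 522 single-gene values and 106 counts or shares kept their direction and their side of the threshold or moved little, while 80 counts or shares moved and, of single-gene values, 41 no longer passed, 38 newly passed and 16 reversed. For LPS against control, the 3 of 7 genes passing in all kept cells became 6 without the low-count filter, 1 with a replicate block and 1 with the stricter cell filter, and 0 to 3 with 1 library left out. The 1 call within types became 11 by DESeq2, 20 without the low-count filter, 2 with the replicate block, with the stricter cell filter, with the stricter gate or with ungated cells added, 4 with mixed cells assigned, 0 with free RNA subtracted and 0 to 17 with 1 library left out. Calls among list genes in all kept cells (18) became 29 by DESeq2, 35 without the filter, 10 with the block and 0 to 21 with 1 library left out; in neutrophils (5) they became 9, 10, 1 with free RNA subtracted, 3 with mixed cells assigned and 0 to 15. For SLC plus LPS against LPS, where 0 passed, no filter gave 1 gene in all kept cells, 5 within types and 4 list genes, and DESeq2 gave 1 list gene. Leaving out 1 library gave 0 to 19 calls within types and 0 to 6 list genes in neutrophils, the highest without LPS replicate 1. For SLC plus LPS against control, the 1 gene in all kept cells became 5 by DESeq2, 2 without TMM factors, 6 without the filter and 0 to 5 with 1 library left out. The 2 calls within types became 10, 1, 16 and 0 to 16 under those settings, 1 with the stricter cell filter and 0 with the stricter gate or free RNA subtracted. List genes in all kept cells (19) became 36 without the filter and 0 to 26 with 1 library left out. In neutrophils (3) they became 7 by DESeq2, 8 without the filter, 5 with the block or ungated cells added, 1 with free RNA subtracted and 0 to 7 with 1 library left out. Without the filter, and with fewer samples, the construction changes what is tested. Otherwise the cause was not tested. With all 6 libraries, 7.84% of all genes passed in all kept cells for LPS against control, and 0.956% of gene tests within types. For SLC plus LPS against control these shares were 12.4% and 1.01%, and between the treated groups 0% and 0.00277%. The shares under each alternative are not set beside its counts. A count that moved there cannot be told apart from a shift over all genes.

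Thinning to 500 UMIs took the mean share of cells with a UMI over 6 libraries from 59.5% to 35.3% for Cxcr2 in neutrophils, 98.5% to 92.9% for Cxcl2 in neutrophils, 89.8% to 58.7% for Cxcl1 and 73.2% to 42.3% for Cxcl3 in alveolar macrophages, and 97.9% to 94.8% for Cxcl15 in alveolar type 2 cells. Neutrophils held 87.9% of Cxcr2 UMIs on average and 91.6% with ungated or with mixed cells added, and 36.6% of Cxcl2 UMIs and 49.8% with ungated cells. With 1 library left out, the following single-gene log2 values took both signs. For LPS against control the range was -0.20 (without LPS replicate 2) to 1.27 for Cxcr2 and -1.04 to 0.26 (without LPS replicate 2) for Cxcl2 in neutrophils, and -0.47 to 0.44 (without control replicate 2) for Cxcl15 in all kept cells, which was 0.18 with the stricter cell filter. Between SLC plus LPS and LPS it was -0.14 (without LPS replicate 2) to 1.18 for Cxcl2 in neutrophils. In all kept cells it was -2.46 to 0.10 for Cxcl3 (0.10 without LPS replicate 2, 0.05 without SLC plus LPS replicate 2), -0.062 to 0.53 for Cxcl5, -0.11 to 0.86 for Cxcl15 (both low ends without SLC plus LPS replicate 1), and -1.71 to 0.0040 (without LPS replicate 2) for Ppbp. For SLC plus LPS against control it was -0.64 to 0.27 for Cxcl1 in alveolar macrophages (0.23 without control replicate 2, 0.27 without SLC plus LPS replicate 1), -0.94 (without SLC plus LPS replicate 2) to 2.01 for Cxcl1 in fibroblasts, and -0.12 to 0.89 for Cxcl15 in all kept cells (-0.12 without SLC plus LPS replicate 1, -0.01 without control replicate 1). Free RNA subtraction gave -0.30 for Cxcl2 in neutrophils in that comparison.

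Same-numbered libraries share only a number: their deviations from group means correlated at 0.0807 (control and LPS), -0.169 (control and SLC plus LPS) and -0.199 (LPS and SLC plus LPS) over 11647 genes. With the replicate block the fibroblast Cxcl5 call for SLC plus LPS against control had adjusted p = 0.0906. Where 1 library stood alone for a group it was assumed to vary like the others. Leaving out a library also changes the estimate of the spread for every gene. A gene that passed or was lost in such a fit is thus not set apart from other genes, except where the share over all genes is given. Depth limits Cxcl5 and, outside platelets, Ppbp, whose sums in most types hold few UMIs.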

Other observations

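Ppbp was also found in macrophages of 1 library. In SLC plus LPS replicate 1, 7 interstitial macrophages with at least 5 Ppbp UMIs held 219 of the 264 Ppbp UMIs of that type. In these 7 cells 8 of 9 platelet markers were at 0 and the platelet list summed to 1 UMI. Their macrophage markers stood at 3588 CPM and Pf4 at 1405 CPM, and their median depth was 10210 UMIs. No interstitial macrophage of the other 5 libraries had 5 or more Ppbp UMIs. One Ly6c2-positive monocyte of the same library held 32 Ppbp UMIs and one of SLC plus LPS replicate 2 held 5, with all 9 platelet markers at 0 in both. These cells were singled out after their values had been seen.

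Part of Ppbp lay outside the kept cells, as did the Cxcl15 described above. Barcodes of at least 100 but under 500 UMIs, which the cell filter removes, held 26.7% and 19.99% of all Ppbp UMIs in the controls, 23.7% and 10.6% after LPS and 17.8% and 21.3% after SLC plus LPS. Their Ppbp level was 364 and 366 CPM in the controls, 131 and 144 after LPS and 88.9 and 93.7 after SLC plus LPS, so that all treated libraries lay below both controls. In kept cells the levels were 44.7 and 70.0, 9.8 and 33.6, and 12.7 and 7.5 CPM. No test was made on these barcodes.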
